A study of Mus musculus with 8 samples.

Results

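H3K27-me3 at the potassium channel genes of mouse liver was examined in 92 protein-coding genes whose symbol starts with Kcn, out of 20720 protein-coding genes on chromosomes 1 to 19. Members were taken by symbol alone. The gene family was picked with earlier results of these data known. Male JMJD3-floxed C57BL/6 mice received AAV-TBG-Cre, or AAV-GFP as the control, when 8 weeks old, and 12 weeks later they were fasted for 16 h. Both groups carried the floxed alleles and were fasted, and they differed in the virus. The TBG promoter restricts Cre to hepatocytes, so other cells of the AAV-TBG-Cre livers kept the gene for JMJD3, a demethylase that removes methyl groups from H3K27. Each virus had 2 H3K27-me3 libraries and 2 input libraries, from 2 mice, 8 libraries in all. The labels name primary liver cells as the material and the protocol names minced liver. Chromatin was thus from all cells of the sample, in which fewer cells with the mark and less mark per cell cannot be told apart.

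The deposited data were 1 list of enriched regions for each virus, made from both mice, so no value per mouse was available, no test between viruses was made, and the differences below describe these lists. The AAV-TBG-Cre list held 59267 regions over 73.7 Mb with a median width of 753 bp, and the AAV-GFP list held 34586 regions over 14.9 Mb with a median width of 231 bp. The narrowest region was 300 bp in AAV-TBG-Cre and 120 bp in AAV-GFP, and 88.6% and 46.8% of regions had a q-value of 0.05 or lower. A gene with a region in AAV-TBG-Cre alone can therefore reflect the depth or the peak call, which cannot be told apart from the virus. Reads per library are unknown, and peak lists cannot show whether Jmjd3 was deleted.

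Potassium channels let potassium ions leave or enter the cell and set its membrane potential. Voltage-gated channels open on depolarisation, inward rectifiers and tandem pore domain channels hold the resting potential, and calcium-activated channels link it to calcium signals. Most family members are known for their roles in neurons, muscle, heart and endocrine cells, and a few carry currents of hepatocytes and bile duct cells. H3K27-me3 is placed by Polycomb complexes on genes that are silent in a tissue, often at start sites that are rich in CpG dinucleotides.

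To show the DNA at these start sites, the 200 bases just upstream of the first start site are printed for 6 members, a pair for each state of marking within 1 kb. Kcnh3 and Kcnn1 had the strongest regions of any member in both lists, Kcnv2 and Kcnf1 had a region only in AAV-TBG-Cre, and Kcnk5 and Kcna10 had none. The sequences are from RefSeq, build GRCm38 (mm10), written 5′ to 3′ on the strand of the gene, with each CpG in capitals.
Kcnh3 (chr15:99224661-99224860, plus strand, 27 CpG): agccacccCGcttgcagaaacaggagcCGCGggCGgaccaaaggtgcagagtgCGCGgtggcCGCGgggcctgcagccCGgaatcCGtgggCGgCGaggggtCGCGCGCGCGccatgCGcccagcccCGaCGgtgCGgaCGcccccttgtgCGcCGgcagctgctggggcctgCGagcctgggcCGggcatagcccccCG
Kcnn1 (chr8:70863259-70863458, minus strand, 8 CpG): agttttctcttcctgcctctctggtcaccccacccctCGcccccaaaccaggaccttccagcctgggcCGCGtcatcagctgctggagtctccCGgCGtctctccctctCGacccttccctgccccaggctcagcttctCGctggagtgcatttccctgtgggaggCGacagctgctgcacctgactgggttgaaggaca
Kcnv2 (chr19:27322388-27322587, plus strand, 3 CpG): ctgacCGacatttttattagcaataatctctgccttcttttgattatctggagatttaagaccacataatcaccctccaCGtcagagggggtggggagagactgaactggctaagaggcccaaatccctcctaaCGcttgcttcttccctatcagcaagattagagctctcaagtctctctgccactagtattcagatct
Kcnf1 (chr12:17176889-17177088, minus strand, 1 CpG): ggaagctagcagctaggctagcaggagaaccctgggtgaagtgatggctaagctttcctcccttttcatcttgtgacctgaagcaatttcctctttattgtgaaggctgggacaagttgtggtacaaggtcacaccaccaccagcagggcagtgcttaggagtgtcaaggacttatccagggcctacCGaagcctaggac
Kcnk5 (chr14:20181810-20182009, minus strand, 14 CpG): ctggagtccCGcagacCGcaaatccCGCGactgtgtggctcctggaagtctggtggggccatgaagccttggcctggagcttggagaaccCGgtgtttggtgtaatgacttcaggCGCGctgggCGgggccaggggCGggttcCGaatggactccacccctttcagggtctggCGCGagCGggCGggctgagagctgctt
Kcna10 (chr3:107182856-107183055, plus strand, 0 CpG): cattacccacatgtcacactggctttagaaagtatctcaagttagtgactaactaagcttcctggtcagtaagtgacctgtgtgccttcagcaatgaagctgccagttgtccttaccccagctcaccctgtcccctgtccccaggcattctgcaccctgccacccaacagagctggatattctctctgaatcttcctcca
The median over the 90 members whose upstream bases were read was 9 CpG in these 200 bases, and over all genes it was 8. Kcnh3, with 27 CpG, and Kcnn1, with 8, were both strongly marked, and Kcnk5, with 14, had no region.

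Most potassium channel genes were marked at a start site in both lists. In AAV-TBG-Cre 80 of 92 members had a region closer than 1 kb to a start site, 87.0% (Wilson 95% interval 78.6 to 92.4), beside 24.6% of all protein-coding genes. In AAV-GFP this held for 67 members, 72.8% (63.0 to 80.9), beside 17.1% of all genes. All 67 members marked in AAV-GFP were also marked in AAV-TBG-Cre. The other 13 members marked in AAV-TBG-Cre, 14.1% (8.45 to 22.7), had no AAV-GFP region in this window, beside 7.81% of all genes. Both shares are over all members or genes, marked or not. Counted over those marked in AAV-TBG-Cre, this was 13 of 80 members and 1619 of 5107 genes, a smaller part of the members. No member, 0 of 92 (0 to 4.01), was marked only in AAV-GFP, beside 0.294% of all genes. The intervals cover counting error only.

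The wider window and the gene bodies gave like counts. Within 15 kb of a start site, 84 members had a region in AAV-TBG-Cre (91.3%, beside 43.1% of all genes) and 74 in AAV-GFP (80.4%, beside 29.0%). In this window 11 members were marked only in AAV-TBG-Cre, 12.0% beside 15.3% of all genes. With regions of a q of 0.05 or lower there were 25, 27.2% beside 19.9%, so the order of the shares depends on the threshold. It also turned in a window of 5 kb (12.0% beside 10.5%). A single member, Kcnu1, was marked only in AAV-GFP, 1.09% beside 1.25% of all genes. Over the gene body, from the first to the last annotated base, 81 members held a region in AAV-TBG-Cre (88.0%, beside 29.8%) and 70 in AAV-GFP (76.1%, beside 21.4%). Over the body 12 members were marked only in AAV-TBG-Cre (13.0%, beside 9.10%) and Kcnu1 only in AAV-GFP (beside 0.748%). Of those with a body region in AAV-TBG-Cre, 12 of 81 members and 1886 of 6165 genes had none in AAV-GFP.

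**Figure D1:**
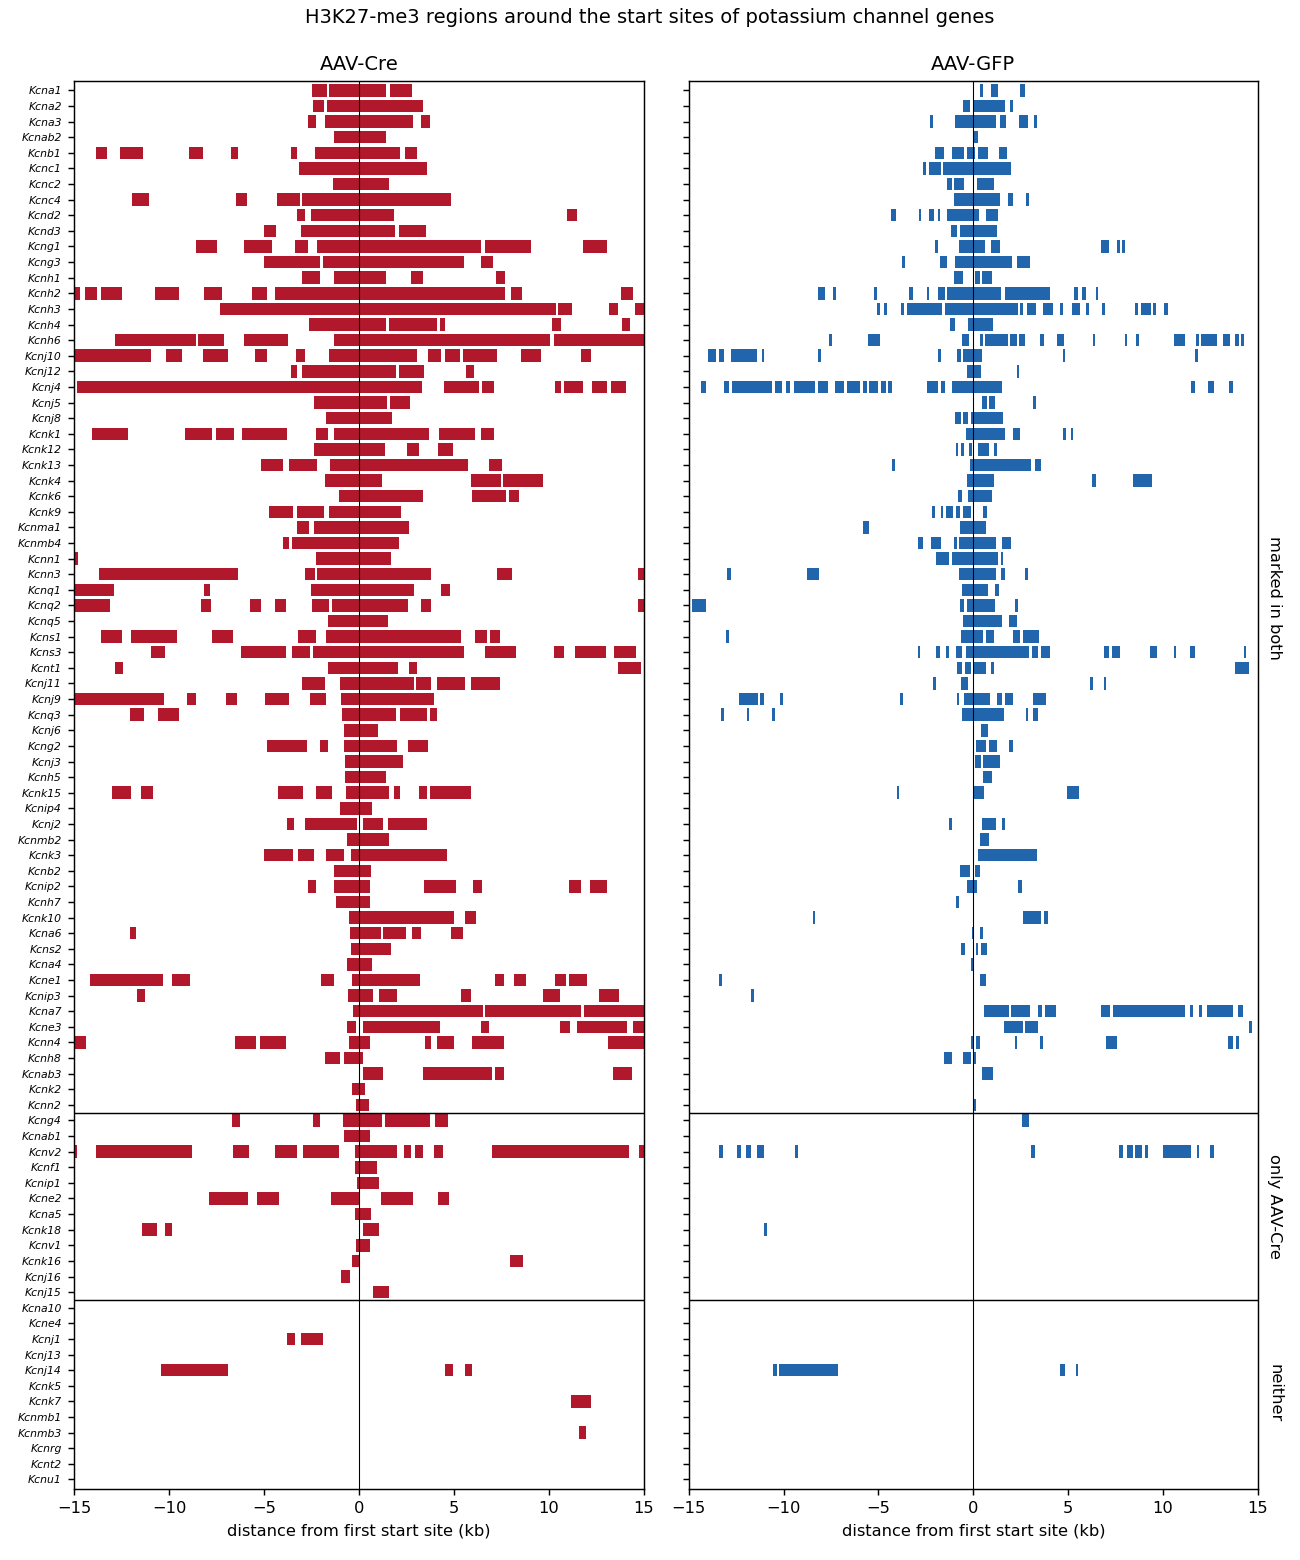
Regions of each list within 15 kb of the first start site of potassium channel genes, with 1 row per gene, the direction of transcription to the right and distance in kb. Rows are grouped by marking within 1 kb of any start site (in both lists, only in AAV-TBG-Cre, in neither), and regions at other start sites farther than 15 kb are not drawn. AAV-TBG-Cre regions cross the start site as single blocks in most rows, where AAV-GFP shows several short ones.

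At the start sites nearly all AAV-GFP regions lay at an AAV-TBG-Cre region, but not the reverse, and the widths differed. Of 117 AAV-GFP regions within 1 kb of a member's start site, 115 overlapped a region of AAV-TBG-Cre, and of 96 AAV-TBG-Cre regions, 69 overlapped one of AAV-GFP. The widest region of a marked member had a median width of 3525 bp (quartiles 1858 and 5037) in AAV-TBG-Cre and 1021 bp (501 and 1936) in AAV-GFP. Over all marked genes these medians were 2549 and 916 bp. A region of at least 5 kb lay at the start site of 22 members in AAV-TBG-Cre, 27.5% of the marked ones beside 19.9% of all marked genes, and of 0 in AAV-GFP, beside 1.49%. More than 1 region within 1 kb was found for 12 members in AAV-TBG-Cre and for 35 in AAV-GFP, and for 1165 and 1853 of all genes. In AAV-GFP this was 52.2% of the marked members and also 52.2% of all marked genes. In AAV-TBG-Cre the share of the marked members was below that of all marked genes, 22.8%. Several regions at a start site were thus no more common in the marked members than in marked genes at large. The start site itself lay inside a region for 74 and 45 members (80.4% and 48.9%, beside 20.1% and 11.4% of all genes). Of the marked members this was 92.5% and 67.2%, beside 81.8% and 66.6% of all marked genes.

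As a second measure, the share of the bases within 1 kb of the first start site that lay in a region was taken. Its median over the 92 members was 88.0% in AAV-TBG-Cre and 27.6% in AAV-GFP, and over all genes it was 0 in both. More of these bases were covered in AAV-TBG-Cre for 74 members and in AAV-GFP for 0, and over all genes for 4671 and 83. The balance towards AAV-TBG-Cre is thus shared by genes in general. Among the marked members, 51 of 80 had a start-site region in the top 10% of the AAV-TBG-Cre list by p-value, where all marked genes gave 3040 of 5107. In AAV-GFP these counts were 40 of 67 and 1698 of 3549.

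By subunit class, marking at start sites was most complete in the Kv7 and the EAG, ERG and ELK families. All 5 Kv7 genes and all 8 EAG, ERG and ELK genes were marked within 1 kb in both lists. The Kv1 to Kv4 genes, which form delayed rectifier and A-type channels, were marked in 15 of 16 (AAV-TBG-Cre) and 13 of 16 (AAV-GFP). The calcium- and sodium-activated genes were marked in 6 of 8 in both lists. Inward rectifier genes were marked in 12 and 10 of 15, tandem pore domain genes in 12 and 10 of 14, and auxiliary subunits in 12 and 9 of 15. The silent modifiers, Kv subunits that make no channel alone and join Kv2 subunits, were marked in 10 of 10 in AAV-TBG-Cre and in 6 of 10 in AAV-GFP. Kcnrg, a regulator with no channel pore, was unmarked. The 76 pore-forming genes gave 68 (89.5%) and 58 (76.3%), and the intervals of the classes overlapped widely.

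**Figure D2:**
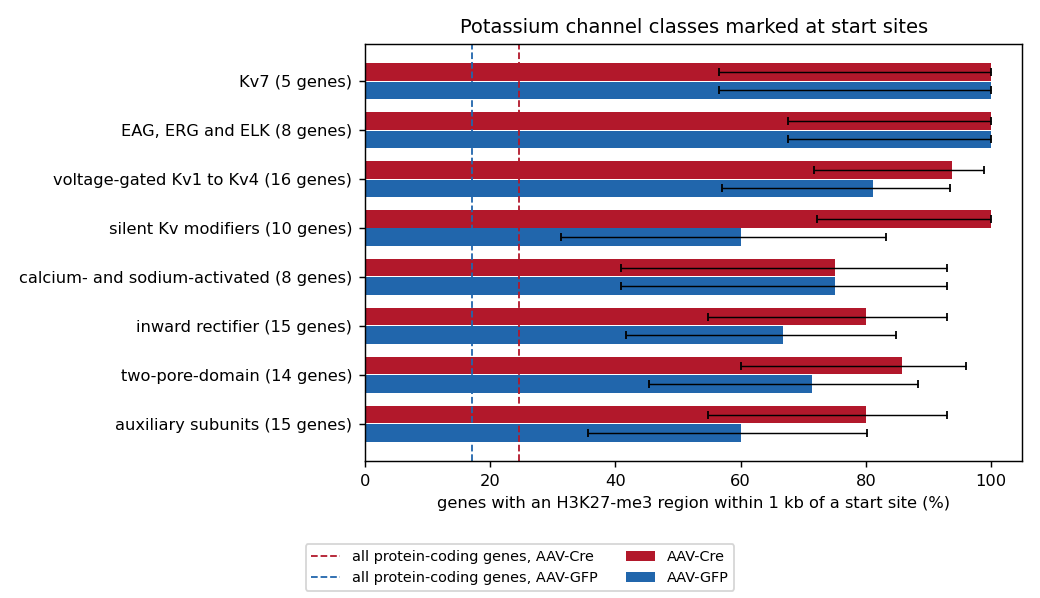
Percent of the genes of each subunit class with a region within 1 kb of a start site, for AAV-TBG-Cre (red, AAV-Cre in the key) and AAV-GFP (blue), with Wilson 95% intervals for counting error as error bars. Dashed lines give the shares of all protein-coding genes, 24.6% and 17.1%, and every bar lies above the line of its list.

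Among the Kv1 to Kv4 and the EAG, ERG and ELK genes, Kcnh3 and Kcnd3 held the most strongly marked starts in AAV-TBG-Cre. Kcnh3, an ELK channel of the forebrain, had a region of 17703 bp in AAV-TBG-Cre (chr15:99217526-99235228, −log10 p of 93.0, fold over input of 11.7) and of 3869 bp in AAV-GFP (−log10 p of 43.4, fold of 8.28), the widest AAV-GFP region at any member's start site. The p-values and folds are those of the peak call and were compared within a list only. Kcnh4, a second ELK channel, had 4032 bp with a −log10 p of 55.2 in AAV-TBG-Cre and 1290 bp with 27.8 in AAV-GFP. Kcnd3, the A-type channel Kv4.3 of heart and brain, had 4937 bp with a −log10 p of 58.2 in AAV-TBG-Cre and 1922 bp with 32.7 in AAV-GFP. Kcna3, the T cell channel Kv1.3, had 4623 bp with 55.1 and 2181 bp with 10.9. In all 4 genes the start site lay inside the region of both lists.

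The Kv7 genes, whose products carry slow potassium currents in neurons, heart and epithelia, were covered alike. Their start windows were covered by 93.8% to 100% in AAV-TBG-Cre and by 68.0% to 84.7% in AAV-GFP. Kcnq3, of the neuronal M-current, had a region of 2849 bp with a −log10 p of 43.5 in AAV-TBG-Cre and of 2200 bp with 18.8 in AAV-GFP. For Kcnq5 the widths were 3158 and 2050 bp, with a −log10 p of 30.8 and 9.81. In the other classes the least covered gene of AAV-GFP had 8.10% at most. Those classes, Kcnrg apart, hold 8 to 16 genes against 5 for Kv7, and a minimum tends to fall with class size. The ranges overlapped, with a highest AAV-GFP value of 100% in the EAG, ERG and ELK class.

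**Figure D3:**
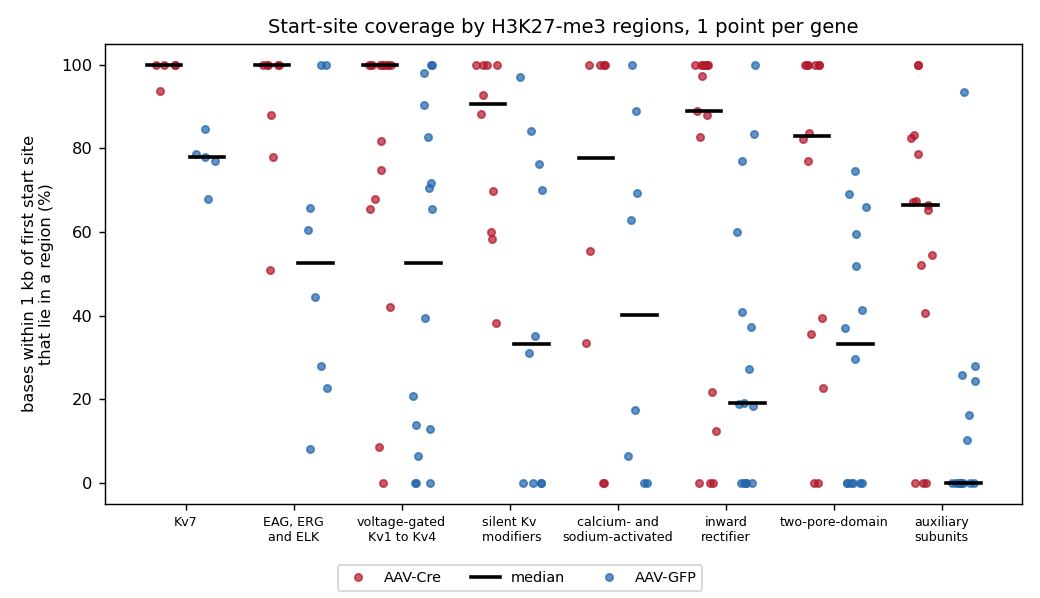
Percent of the bases within 1 kb of the first start site that lay in a region, with 1 point per gene, by class and list, and black bars at the medians. The Kv7 points of AAV-GFP lie between 68.0% and 84.7%, while the AAV-GFP median of the auxiliary subunits is 0.

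In the calcium-activated class, Kcnn1, the small-conductance channel SK1, had the strongest region of all members in AAV-TBG-Cre. It spanned 3920 bp in AAV-TBG-Cre (chr8:70861586-70865505, exon and start site, −log10 p of 104, fold of 18.2), rank 9 of 59267 regions. In AAV-GFP it spanned 2417 bp (−log10 p of 40.2, fold of 7.19), rank 40 of 34586. Kcnn3, the channel SK3, had 6020 bp with a −log10 p of 54.5 in AAV-TBG-Cre and 1957 bp with 19.5 in AAV-GFP. Kcnt2 and Kcnu1 were the members of this class with no region within 1 kb.

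Among inward rectifiers the widest region of any member lay at Kcnj4, the channel Kir2.3, with 18199 bp in AAV-TBG-Cre (chr15:79501923-79520121, −log10 p of 39.4). It reached over the start site of the neighbouring gene Kdelr3 too, so it is not a domain of Kcnj4 alone. The AAV-GFP region at the start of Kcnj4 had 2604 bp (−log10 p of 25.8) and ended 10052 bp from the start site of Kdelr3. Separate AAV-GFP regions lay between these start sites. Another AAV-GFP region, at -12744 to -10596 bp from the start site of Kcnj4, lay over the start site of Kdelr3. Both lists thus marked the start sites of both genes, in AAV-GFP by separate regions. Kcnj10, the glial channel Kir4.1, had 4660 bp with a fold over input of 11.0 in AAV-TBG-Cre (rank 731 by p-value) and 1021 bp with 2.67 in AAV-GFP. Kcnj9 and Kcnj10, with start sites 11.9 kb apart on chromosome 1, were the only members that had regions within 15 kb in common, so their 15 kb calls are not independent.

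Of the tandem pore domain genes, Kcnk4, the mechanosensitive channel TRAAK, was marked over 3011 bp in AAV-TBG-Cre (−log10 p of 78.5) and 1407 bp in AAV-GFP (23.7). Kcnk13 had 7316 bp with a fold of 10.9 in AAV-TBG-Cre (rank 726). In AAV-GFP it had 3226 bp with a fold of 2.58 (rank 4542), so that its AAV-GFP region was among the widest and not among the strongest. Kcnk3, the acid-sensitive channel TASK-1, had 5049 bp and 3085 bp, and the AAV-GFP region began 260 bp from its start site.

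The silent modifiers and auxiliary subunits held strong regions too. Kcng3, a silent modifier, had 7414 bp with a −log10 p of 61.5 in AAV-TBG-Cre and 2956 bp with a fold of 3.83 in AAV-GFP. Kcns3, of the same class, had 7981 bp with a −log10 p of 32.7 and 3299 bp with 17.1. Kcng1 had 8642 bp in AAV-TBG-Cre, the fifth widest start-site region of a member there, and 1353 bp in AAV-GFP. Kcnmb4, a beta subunit of the BK channel that is known from neurons, had 5654 bp with a −log10 p of 61.5 in AAV-TBG-Cre and 1950 bp with 11.7 in AAV-GFP. Kcnip3, a calcium-binding partner of Kv4 channels, had 7376 bp with 33.9 and 2786 bp with 16.2, at a start site other than the first.

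The 13 members marked within 1 kb only in AAV-TBG-Cre were weakly marked. They included 4 silent modifiers (Kcnf1, Kcng4, Kcnv1 and Kcnv2), the Kv channel Kcna5, the inward rectifiers Kcnj15 and Kcnj16, the tandem pore domain channels Kcnk16 and Kcnk18, and the auxiliary subunits Kcnab1, Kcne2 and Kcnip1. The −log10 p of their strongest start-site region in AAV-TBG-Cre had a median of 5.62 (lowest 3.48, highest 13.0), and that of the 67 members marked in both lists had a median of 28.0 (6.22 to 104). Their widest regions had medians of 843 and 3920 bp, respectively. The 13 were picked for having no region in the list with fewer and narrower regions, a choice that itself favours weak regions. The like medians over all genes were not computed. The highest of the 13 was Kcnv2, a partner of Kv2.1 in photoreceptors, with 2185 bp, a −log10 p of 13.0 and a fold of 4.61. It was followed by Kcng4 with 2074 bp and 9.47, and Kcne2, a partner of several Kv channels, with 8.23.

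The weakest of the 13 were Kcnj15 (838 bp, −log10 p of 3.48, q of 0.0230) and Kcnk18 (839 bp, 3.76, q of 0.0124). Kcna5, the atrial channel Kv1.5, had 843 bp with a −log10 p of 6.45, and Kcnf1 had 1166 bp with 5.62. Close to these were Kcnip1 (1155 bp, 6.06), Kcnab1 (1344 bp, 5.62), Kcnv1 (764 bp, 5.58), Kcnj16 (435 bp, 5.05) and Kcnk16 (452 bp, 4.50). All 13 regions had a q-value below 0.05. When regions with a q above 0.05 were dropped from both lists, all 13 were still marked only in AAV-TBG-Cre. Another 12 members moved in from both lists, giving 25 (27.2%, beside 9.82% of all genes). At that threshold 80 members (87.0%) and 24.1% of all genes were marked in AAV-TBG-Cre. With the same number of top regions in each list, 11 of the 13 were still marked only in AAV-TBG-Cre (12.0%, beside 5.72% of all genes). Kcnj15 and Kcnk18 were then unmarked. In that setting 78 members (84.8%) and 22.4% of all genes were marked in AAV-TBG-Cre.

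The AAV-GFP regions nearest to Kcng4, Kcnv2 and Kcnk18 lay 2256, 3060 and 10875 bp from a start site, with q-values of 0.0547, 0.979 and 0.182. Within 15 kb Kcnv2 held 14 AAV-GFP regions, where Kcng4 and Kcnk18 held 1 each. The body of Kcnv2 held 8, over 3131 bp (21.5%), so Kcnv2 was marked in both lists outside the 1 kb window. For 9 of the 13 the nearest AAV-GFP region was farther than 15 kb, from 41036 bp (Kcnj16) to 321197 bp (Kcnab1).

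No region within 1 kb was found in either list for 12 members, and 7 of these had none within 15 kb or over the body. The 7 were Kcne4, Kcnmb1, a BK beta subunit of smooth muscle, Kcnj13, the channel Kir7.1 of transporting epithelia, Kcna10, Kcnk5, Kcnrg and the sodium-activated channel Kcnt2. The nearest region to Kcnt2 lay 415966 bp away in AAV-TBG-Cre and 413793 bp in AAV-GFP, and to Kcne4 90729 and 491845 bp. Kcna10 lay 81.9 kb from the start of Kcna2, which was marked over 5074 bp in AAV-TBG-Cre and 1683 bp in AAV-GFP. The other 5 had regions farther out. Kcnj14 had regions in both lists at 4514 and 4586 bp, and Kcnj1 had them at 1871 bp in AAV-TBG-Cre and 14274 bp in AAV-GFP. Kcnmb3 and Kcnk7 had a region only in AAV-TBG-Cre, at 11594 and 10589 bp. Kcnu1, a potassium channel of sperm, had only an AAV-GFP region of 178 bp with a q of 0.182.

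Neighbouring members did not always go together. On chromosome 6, Kcna5 was marked only in AAV-TBG-Cre, while Kcna1, at 109 kb, and Kcna6, 95.9 kb farther on, were marked in both lists. Kcnj5 was marked in both lists and Kcnj1, at 28.1 kb, in neither. Kcne1 was marked in both lists and Kcne2, at 67.1 kb, only in AAV-TBG-Cre. The start-site region nearest to a member lay within 1 kb of another gene's start site for 3 of the 80 members marked in AAV-TBG-Cre and for 1 of the 67 in AAV-GFP.

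CpG content at the start site was compared next, since Polycomb marks are known at CpG-rich start sites. A CpG-rich start, with a GC content of at least 50% and an observed over expected CpG ratio of at least 0.6 within 1000 bp of the first start site, was found for 28 members (30.4%) and for 6567 of all genes (31.7%). All 28 were marked within 1 kb in AAV-TBG-Cre and 27 (96.4%, interval 82.3 to 99.4) in AAV-GFP, beside 24.9% and 21.0% of all genes with CpG-rich starts. Of the 64 members with other starts, 52 (81.2%, 70.0 to 88.9) were marked in AAV-TBG-Cre and 40 (62.5%, 50.3 to 73.3) in AAV-GFP, where all such genes gave 24.5% and 15.3%. So 12 of the 13 members marked only in AAV-TBG-Cre and all 12 unmarked members had starts that were not CpG-rich. This depends on the window. With composition taken within 500 bp, 39 members had CpG-rich starts, of which 38 were marked in AAV-TBG-Cre and 37 in AAV-GFP. An unmarked member then had such a start. The median observed over expected ratio was 0.562 in members marked in both lists, 0.331 in those marked only in AAV-TBG-Cre, and 0.225 in the unmarked, with overlapping ranges (0.114 to 0.940, 0.120 to 0.757 and 0.119 to 0.591).

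**Figure D4:**
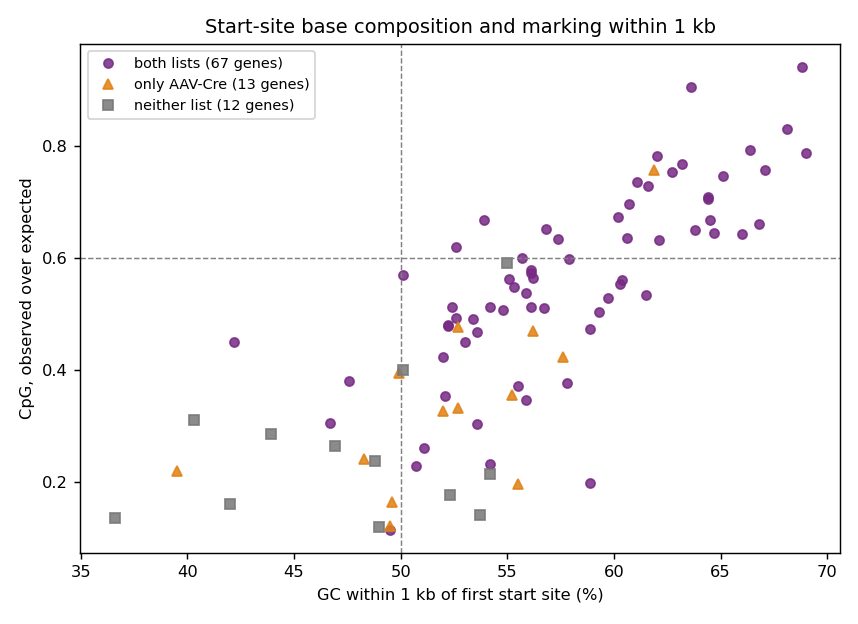
GC content (percent) and observed over expected CpG within 1 kb of the first start site for the 92 members, coloured by marking within 1 kb, with dashed lines at the 50% and 0.6 limits. The upper right field holds 28 genes, of which 27 are marked in both lists.

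Over gene bodies, coverage was wide in AAV-TBG-Cre and uneven between genes. The member bodies held 382 regions and 549152 covered bases in AAV-TBG-Cre and 254 regions and 125022 bases in AAV-GFP, over 10381465 bases of gene length. Of the AAV-GFP bases, 96.8% lay in AAV-TBG-Cre regions, and of the AAV-TBG-Cre bases, 22.0% lay in AAV-GFP regions. The median share of the body covered was 9.37% in AAV-TBG-Cre and 1.60% in AAV-GFP, and 80 members had more covered bases in AAV-TBG-Cre while 2 had more in AAV-GFP. Over all genes these counts were 6107 and 175. The 2 members were Kcnq5, with 0.275% and 0.341% of its body covered, and Kcnu1. The members were long genes, with a median length of 32181 bp where all genes had 17594 bp, which gives a body more room for a region.

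Kcnh1, the channel EAG1, held the most covered bases in both lists. In AAV-TBG-Cre 49 regions covered 84382 bp, 26.4% of its 319386 bp, and 46 of them lay farther than 15 kb from a start site. In AAV-GFP 26 regions covered 8135 bp, 2.55%. Kcnh1 alone gave 15.4% of the covered member bases in AAV-TBG-Cre and 6.51% in AAV-GFP. Such spread was unusual among the long members. Of the 23 members longer than 100 kb, 13 had less than 1% of the body covered in AAV-TBG-Cre and 21 in AAV-GFP, and only Kcnh1, Kcnn3 (10.5%) and Kcnq1 (5.93%) reached 5% in AAV-TBG-Cre. Kcnip4, the longest member with 1135406 bp, had 0.390% and 0.0499%.

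Several shorter genes had a larger share of the body covered, while others, such as Kcnj13, had no region over it. In AAV-TBG-Cre, Kcnip3 had 21885 bp covered (33.4%), Kcnh6 19781 bp (74.9%) and Kcnh2 19723 bp (61.6%). In AAV-GFP, Kcnh6 had 6829 bp (25.8%), Kcnh2 6046 bp (18.9%), Kcns3 5476 bp and Kcnh3 5344 bp (29.8%). Kcnh6, the channel ERG2, shows how the lists differ in form, with 2 regions of up to 11358 bp in AAV-TBG-Cre and 20 regions of at most 1206 bp in AAV-GFP, all of whose bases lay inside the former. The whole body of Kcna3, 1902 bp, was covered in AAV-TBG-Cre and 81.0% of it in AAV-GFP.

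**Figure D5:**
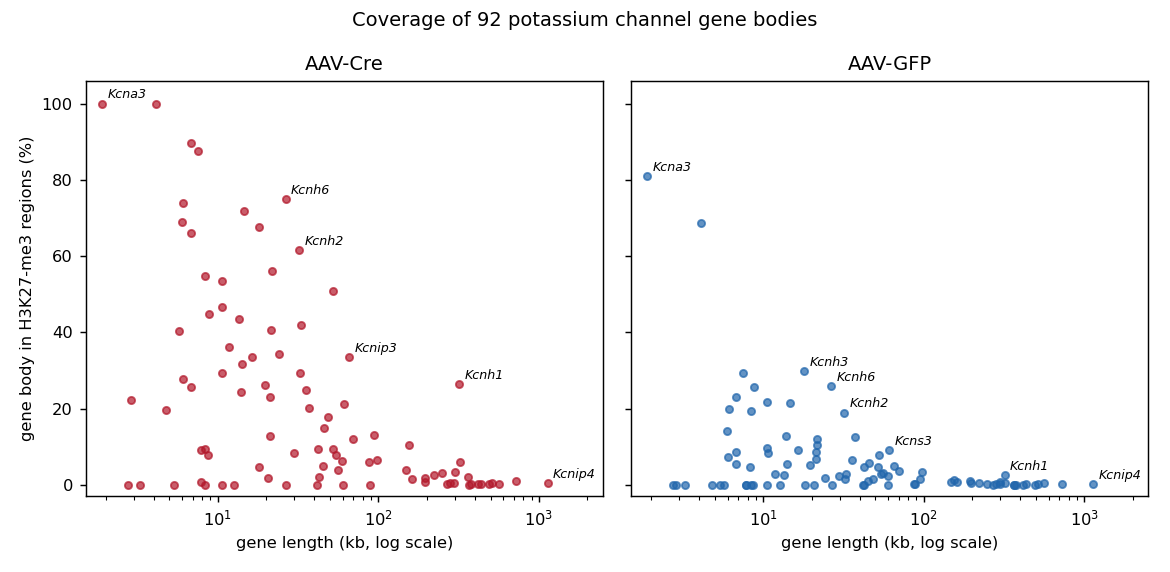
Percent of the gene body in regions against gene length (kb, log scale), with 1 point per member in each list. Kcnh1 stands above the other genes longer than 100 kb in AAV-TBG-Cre, at 26.4%, and the values of AAV-GFP are lower, with Kcna3 highest at 81.0%.

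Members with a known place in liver cells were examined as a list of 11. Of these 10 were marked within 1 kb in AAV-TBG-Cre and 9 in AAV-GFP. Over all 92 members the shares were 87.0% and 72.8%, and over all genes 24.6% and 17.1%. The high marking of this list is thus shared by the family. Kcnq1, which carries potassium currents with its partner Kcne3 in epithelia, had 5467 bp with a −log10 p of 20.0 in AAV-TBG-Cre and 1360 bp with 14.1 in AAV-GFP. Kcne3 had 4092 bp with 29.0 and 975 bp with 9.72. Kcnn4, the intermediate-conductance calcium-activated channel, had 1110 bp with 21.4 and 209 bp with 6.10, and Kcnn2 had 668 bp with 9.08 and 129 bp with 3.12, the latter at a q of 0.285. The subunits of ATP-sensitive channels, Kcnj8 and Kcnj11, had 3490 and 3907 bp in AAV-TBG-Cre and 1674 and 379 bp in AAV-GFP. Kcnk1 had 5005 and 2073 bp, Kcnk9, an imprinted gene, had 3829 and 408 bp, and Kcnh2, the cardiac channel ERG1, had 12124 and 2862 bp. Kcnj16 was marked only in AAV-TBG-Cre and Kcnk5 in neither list.

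The imprinted gene Kcnq1 holds, inside its body and on the other strand, the start of the long noncoding RNA Kcnq1ot1. Kcnq1 held 20 regions in AAV-TBG-Cre, 18 of them farther than 15 kb from a start site of Kcnq1, and 2 in AAV-GFP, both within 15 kb. The region nearest to the Kcnq1ot1 start lay at 18730 bp in AAV-TBG-Cre (−log10 p of 5.06) and at 187919 bp in AAV-GFP.

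Other cation channel and pump genes were marked often too. Among 52 other cation channel and pump genes, 40 (76.9%, 63.9 to 86.3) were marked within 1 kb in AAV-TBG-Cre and 36 (69.2%, 55.7 to 80.1) in AAV-GFP. Calcium channel subunits gave 23 and 21 of 25, sodium channel subunits 8 and 7 of 14, the pacemaker Hcn channels 4 and 3 of 4, and Na,K-ATPase subunits, several of which are active in most cells, 3 and 3 of 7. Both sulfonylurea receptors, the partners of Kcnj8 and Kcnj11, were marked in both lists. Of 14 genes of hepatocyte products, such as albumin, 0 were marked in either list. Of 15 marker genes of other liver cells, 11 were marked in AAV-TBG-Cre and 8 in AAV-GFP: cholangiocyte 4 and 3 of 4, stellate cell 4 and 3 of 4, endothelial 2 and 2 of 4, and Kupffer cell 1 and 0 of 3. The labelled tissue could be checked this far only, since the lists hold no expression, and the part of other cells in the marking was not tested.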

How the data were processed

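The authors performed H3K27-me3 ChIP-seq on livers with 2 mice per virus, and processed reads with the AQUAS pipeline for histone marks and a pooled input. Per the labels, BWA 0.7.13, SAMtools 1.2 and Picard 1.126 were used on mm10. Each deposited list pools both replicates. For each region it gives a fold enrichment over input (a ratio), the −log10 p-value and the −log10 q-value, as computed by the authors' peak caller, with no read counts. The deposited display score was not used. A narrow peak call splits broad domains.

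Start sites were those of basic protein-coding transcripts of GENCODE vM21 (GRCm38). The first start site is the most upstream of these. Genes were called marked when a region overlapped a window by at least 1 bp. Shares have Wilson 95% intervals. Another gene's regions can fall in a window. Members, classes and lists were chosen with earlier results of these data known, the classes, the liver list and the markers by symbol from general knowledge. Vsig4, a Kupffer cell marker, lies outside chromosomes 1 to 19 and was left out. Named were members marked within 1 kb in 1 list, marked within 15 kb only in AAV-GFP, unmarked throughout, on the liver list or sharing a region, the 5 widest and 5 most covered in each list, and the 2 strongest of each class. A few members that meet these rules are not reported here one by one and are left out of the map of regions, but stay in the counts. Other genes, such as Kcna1, Kcna6 and Kcne1, were named after their values were seen. The functions were tested on simulated regions. Python 3.11.15, numpy 2.4.6, pandas 2.3.3, scipy 1.17.1 and pysam 0.24.0 were used. The alternatives tried were q thresholds, equal region numbers, a minimum width, merging, other windows and overlaps, and base composition within 500 bp.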

Additional observations from a re-analysis of the deposited data

How the results depend on the processing

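Of 86 alternative values, 67 differed from the reported count by less than 1.5 times and 19 by more. All 19 concern members marked in a single list, and the counts for each list and for CpG-rich starts are among the 67. Members marked within 1 kb only in AAV-TBG-Cre (13) numbered 25 at a q of 0.05 or lower, 27 at 0.01 or lower and 21 at a minimum width of 300 bp, where the share of all genes rose too, from 7.81% to 9.82%, 10.2% and 10.7%. Within 15 kb (11) these settings gave 25, 25 and 19 members, 27.2%, 27.2% and 20.7% beside 19.9%, 20.0% and 22.3% of all genes (15.3% as reported), so the members' share passed that of all genes at both q thresholds and not at the minimum width. Over the body (12) they gave 22, 23 and 22, beside 12.2%, 12.7% and 13.5% of all genes, with 24 (beside 12.1%) when 500 bp of the body had to be covered. These settings by construction remove more AAV-GFP regions, since the AAV-GFP list holds more regions of high q-value and small width. All shares here are over members or genes as a whole, marked or not. The single member marked only in AAV-GFP, Kcnu1, gave 0 at both q thresholds and at the minimum width in both windows, at the gene's 5′ end only and within 5 kb for the start-site window, and with 500 bp of the body. No paired analysis was possible because each virus has 1 pooled list, and leaving out a mouse was not possible for the same reason. The depth is unknown, so a region that is missing from the AAV-GFP list is not shown to be absent.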
